A study of Homo sapiens with 6 samples.

Results

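Transcripts of 10 genes that restrain mTORC1, the growth-promoting complex built around the kinase mTOR, were examined after knockdown of Matrin3. The genes were the sestrins SESN1, SESN2 and SESN3, the stress inhibitor DDIT4 (also called REDD1), TSC1 and TSC2 of the TSC complex, DEPDC5, NPRL2 and NPRL3 of the GATOR1 complex, and DEPTOR, an inhibitor bound to mTOR. They were chosen by symbol, as the rows of the deposited gene tables whose gene ID carries 1 of these names, and were 10 of 58884 gene IDs. All 10 passed the filter on low counts, among 14334 genes tested. The set was taken up because SESN1 and SESN2 had been seen higher in siMatrin3 in these same libraries, and the other 8 were added as relatives in function. The values of all 10 in this comparison are therefore a description and carry no p-value.

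HCT116 is an established human colorectal cancer line. The cells were transfected for 48 h either with siCTRL, a control siRNA without a target, or with 1 pool of siRNAs against Matrin3, a nuclear RNA-binding protein (siMatrin3), and each group had 3 libraries. RNA was taken from whole cultures of this 1 line, and the groups differed in the siRNA given. The control siRNA and the pool came from different suppliers, per the study's methods. The libraries were made for total RNA after removal of ribosomal RNA, per the study's methods.

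Total expected counts ran from 4556658 to 8400412 per library, and siCTRL replicate 1 was the shallowest. MATR3, the targeted gene, was at 330.2 to 363 CPM (counts scaled to a common library total) in siCTRL and at 67.9 to 72.4 CPM in siMatrin3 (log2 fold change -2.29 ± 0.06 SE, adjusted p = 7.58e-11, edgeR quasi-likelihood test). Of 10 colon epithelial markers, CDX1 was at 0 in every library, and KRT20, VIL1 and LGR5 stayed under 2 CPM. The summed CPM of those 10 was 1577 to 1724 in siCTRL and 1800 to 1898 in siMatrin3, and 2 of them, EPCAM and KRT19, rose (adjusted p = 0.0183 and 0.0106, edgeR). Of the 17 markers of fibroblasts, blood and neural cells, 7 were at 0 in every library, and none of the 3 high enough to test passed by edgeR. Their sums in the 2 groups overlapped for each of these cell types, blood markers summed to at most 0.549 CPM, and COL1A1 (16.7 to 21.4 CPM) and SYT1 (23.9 to 33.1 CPM) made up most of the other sums. The part that the shift in EPCAM and KRT19 had in the results was not tested.

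As background, mTORC1 drives protein synthesis and cell growth when nutrients and growth factors are present. Amino acids act through the RAG GTPases at the lysosome. GATOR1 switches the RAGs off, GATOR2 opposes GATOR1, and the sestrins bind GATOR2 when leucine is scarce, so that GATOR1 acts. Growth factors act through the GTPase RHEB, which the TSC complex turns off, and DDIT4 favours that complex under hypoxia and other stress. SESN1 and SESN2 are known p53 targets, SESN2 and DDIT4 are also induced by the stress factor ATF4, DDIT4 by hypoxia, and SESN3 by FOXO factors.

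The RefSeq promoter windows (GRCh38.p14), each 300 bases long with 250 before the start site and 50 after it, are shown for the 4 genes on which the description turns: SESN1, SESN2 and DDIT4, which were higher in siMatrin3, and SESN3, which was lower. They are SESN1 at chr6:109008939-109009238 on the minus strand (the most downstream of its 3 windows), SESN2 at chr1:28259268-28259567 on the plus strand, DDIT4 at chr10:72273674-72273973 on the plus strand and SESN3 at chr11:95232426-95232725 on the minus strand. Capitals mark matches to 5 motifs on either strand (CCAAT, the hypoxia and E-box core ACGTG, the forkhead motif GTAAACA, the ATF4 element TGATGNAA and the p53 core site), so that CCAAT may appear as ATTGG.
SESN1: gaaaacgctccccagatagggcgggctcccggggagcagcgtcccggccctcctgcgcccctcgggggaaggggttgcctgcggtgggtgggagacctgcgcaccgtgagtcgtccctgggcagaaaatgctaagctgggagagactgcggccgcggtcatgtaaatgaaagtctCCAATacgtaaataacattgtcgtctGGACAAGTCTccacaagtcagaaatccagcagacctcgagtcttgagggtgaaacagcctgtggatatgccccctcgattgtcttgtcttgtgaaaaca
SESN2: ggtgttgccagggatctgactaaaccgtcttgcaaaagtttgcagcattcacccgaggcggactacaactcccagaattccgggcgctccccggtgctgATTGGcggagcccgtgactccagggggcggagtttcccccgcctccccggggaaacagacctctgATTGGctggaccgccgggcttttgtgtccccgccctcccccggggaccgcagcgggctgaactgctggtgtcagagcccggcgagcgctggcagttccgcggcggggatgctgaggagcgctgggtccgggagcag
DDIT4: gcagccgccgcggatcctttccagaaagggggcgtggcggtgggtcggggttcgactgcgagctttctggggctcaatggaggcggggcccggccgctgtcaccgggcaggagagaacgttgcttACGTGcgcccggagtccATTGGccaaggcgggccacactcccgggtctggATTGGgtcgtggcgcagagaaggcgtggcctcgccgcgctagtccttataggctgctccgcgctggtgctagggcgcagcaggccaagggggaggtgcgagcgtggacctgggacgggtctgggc
SESN3: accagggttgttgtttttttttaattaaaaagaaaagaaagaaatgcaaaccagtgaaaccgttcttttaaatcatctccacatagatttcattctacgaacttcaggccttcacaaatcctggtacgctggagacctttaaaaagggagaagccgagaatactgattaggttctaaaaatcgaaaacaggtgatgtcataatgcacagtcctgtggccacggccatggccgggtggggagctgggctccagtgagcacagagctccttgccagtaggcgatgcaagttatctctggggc

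In the windows printed above, SESN1 held CCAAT 75 bases before the start site (-75) and a p53 core site at -49. Of its windows not printed, chr6:109009503-109009802 held only CCAAT at -90, and chr6:109094797-109095096 held no match. SESN2 held CCAAT at -151 and -86. DDIT4 held ACGTG, the core shared by hypoxia response elements and many E-boxes, at -125, and CCAAT at -108 and -75. SESN3 held no match to any of the 5 and had the lowest share of G and C of the windows of these genes, 45.0% against a median of 58.7% over all windows. Of the 10 genes, 9 had an entry, with 14 windows in all, and DEPTOR had none. CCAAT was found in 5 of the 14 windows (4 genes: SESN1, SESN2, DDIT4 and NPRL2) and in 34.6% of 35116 windows. ACGTG was found in 3 of the 14 (DDIT4, TSC2 and NPRL3) and in 21.4% of all windows. The p53 core site is the 10-base consensus that stands as a pair in a full p53 element. It was found in 2 of the 14 (SESN1 and NPRL2) and in 6.63% of all windows. TGATGNAA, the composite ATF4 element, was found in 1 of the 14 (TSC2) and in 3.62% of all windows. The forkhead motif GTAAACA was found in none of the 14 and in 3.42% of all windows. In TSC2 and NPRL3 ACGTG was counted on both strands of 1 CACGTG, and in TSC2 that match overlapped TGATGNAA.

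Between siCTRL and siMatrin3, 4 of the 10 genes were among those called higher by edgeR (SESN1, SESN2, DDIT4 and NPRL3), 2 were among those called lower (SESN3 and TSC1), and 4 were not called. Over all genes tested, 10.9% were called at an adjusted p under 0.05, with 5.68% higher and 5.18% lower. The CPM ranges of the 2 groups did not overlap for 7 of the 10, 5 higher and 2 lower, against 29.8% of all genes tested. The median log2 fold change of the 10 was 0.26, and over all genes it was -0.00. The median size regardless of sign was 0.38 for the 10 and 0.16 over all genes. Because the set was taken up from this contrast, nothing is read from these counts. In bulk RNA, fewer cells that use a gene and less of its RNA per cell cannot be told apart.

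**Figure D1:**
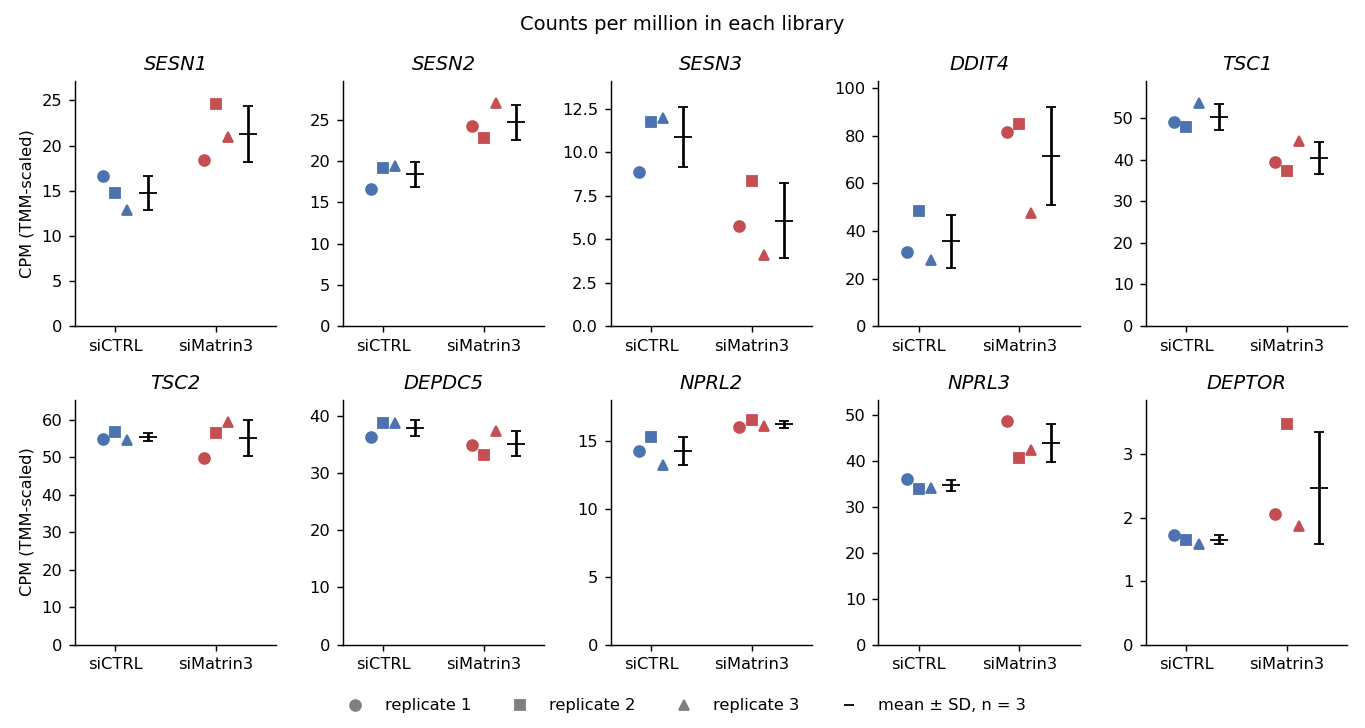
CPM of each gene (y axis from 0, TMM-scaled) in the 3 siCTRL libraries (blue) and the 3 siMatrin3 libraries (red), with point shapes for replicate numbers and bars for the mean ± SD. The siMatrin3 libraries lie above all siCTRL libraries for SESN1, SESN2, NPRL2, NPRL3 and DEPTOR and below all of them for SESN3 and TSC1, while DDIT4 overlaps.

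The 3 sestrins did not move together: SESN1 and SESN2 were higher in siMatrin3 and SESN3 was lower. SESN1 (ENSG00000080546, chr6:108984309-109094846 in hg38, minus strand, 10 exons) encodes a sestrin induced by p53. It was at 16.6, 14.7 and 12.9 CPM in siCTRL replicates 1 to 3 and at 18.4, 24.5 and 20.9 CPM in siMatrin3 replicates 1 to 3. Every siMatrin3 library was above every siCTRL library, the means were 14.7 ± 1.88 and 21.3 ± 3.10 (SD, n = 3), and the log2 fold change was 0.53 ± 0.14 (SE). The same held per length: TPM, a level scaled by transcript length, were 6.49, 6.29 and 5.11 in siCTRL and 8.12, 9.15 and 7.52 in siMatrin3.

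SESN2 (ENSG00000130766, chr1:28259518-28282491, plus strand, 10 exons) encodes a leucine-binding sestrin. It was at 16.6, 19.2 and 19.4 CPM in siCTRL and at 24.3, 22.8 and 27.0 CPM in siMatrin3. The groups again did not overlap, with means of 18.4 ± 1.53 and 24.7 ± 2.12 CPM (SD, n = 3) and a log2 fold change of 0.42 ± 0.11. The siCTRL libraries held 5.01, 5.66 and 5.93 TPM and the siMatrin3 libraries 6.90, 6.32 and 7.37 TPM, also without overlap. SESN2 overlaps no other annotated gene, and RSEM gave it the same effective length in every library.

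SESN3 (ENSG00000149212, chr11:95165513-95232541, minus strand, 10 exons) encodes the FOXO-induced sestrin and had few reads. Its expected counts were 41, 100 and 68 in siCTRL and 42, 48 and 26 in siMatrin3. As CPM it was at 8.85, 11.8 and 11.98 in siCTRL and at 5.76, 8.36 and 4.05 in siMatrin3. All 3 siMatrin3 libraries were lower, by a mean of 44.2%, and the log2 fold change was -0.87 ± 0.24. Per length the groups overlapped, with TPM of 0.96, 1.82 and 1.91 in siCTRL and from 1.2 to 1.37 in siMatrin3. The highest siMatrin3 TPM was below siCTRL replicates 2 and 3 and above siCTRL replicate 1.

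Added over the 3 genes, sestrin TPM came to 12.5, 13.8 and 13.0 in the siCTRL libraries and to 16.2, 16.8 and 16.2 in the siMatrin3 libraries. The summed level was thus higher in every siMatrin3 library (13.1 ± 0.662 and 16.4 ± 0.361, SD, n = 3). SESN1 made up 45.7% ± 6.31 of it in siCTRL and 50.3% ± 3.98 in siMatrin3, SESN2 42.4% ± 3.0 and 41.8% ± 4.01, and SESN3 11.9% ± 3.70 and 7.89% ± 0.428. The ranges of each share overlapped between the groups. SESN1 and SESN2, taken up as higher in these libraries, made up most of the sum, so nothing further is read from its rise.

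DDIT4 had the largest log2 fold change of the 10 on CPM and on TPM. The gene (ENSG00000168209, chr10:72273919-72276036, plus strand, 3 exons) encodes a short-lived stress protein that acts through the TSC complex. It was at 31.1, 48.4 and 27.6 CPM in siCTRL and at 81.8, 85.0 and 47.7 CPM in siMatrin3, a log2 fold change of 0.95 ± 0.21. The means were 35.7 ± 11.1 and 71.5 ± 20.6 CPM (SD, n = 3). The groups overlapped, because siMatrin3 replicate 3 was just under siCTRL replicate 2. By equal replicate number siMatrin3 was higher in each of the 3 pairs, but no label or method states this pairing. TPM gave the same picture, with 21.5, 30.4 and 18.2 in siCTRL and 50.5, 52.7 and 28.1 in siMatrin3.

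Within the TSC complex, TSC1 was lower and TSC2 was not called. TSC1 (ENSG00000165699, chr9:132891348-132946874, minus strand, 23 exons) encodes hamartin, which stabilizes TSC2. It was at 48.98, 47.96 and 53.7 CPM in siCTRL and at 39.4, 37.3 and 44.6 CPM in siMatrin3. The groups did not overlap, the means were 50.2 ± 3.07 and 40.4 ± 3.78 (SD, n = 3), and the log2 fold change was -0.31 ± 0.09. Its TPM overlapped between the groups, at 11.5, 12.1 and 13.0 in siCTRL and 9.60, 9.07 and 12.4 in siMatrin3.

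TSC2 (ENSG00000103197, chr16:2047967-2089491, plus strand, 42 exons) encodes tuberin, which turns RHEB off. It was at 55.03, 56.8 and 54.8 CPM in siCTRL and at 49.9, 56.4 and 59.4 CPM in siMatrin3, with a log2 fold change of -0.01 ± 0.08. The siCTRL range lay inside the siMatrin3 range. Its TPM did not overlap, however, at 30.8, 22.5 and 20.7 in siCTRL and 17.7, 19.9 and 20.4 in siMatrin3. The gap was narrow (20.67 against 20.44), and the median gene stood at -0.09 by limma on log2(TPM + 1). In siCTRL replicate 1, with the highest TPM, its effective length was 1837 bases, against 2553 to 2767 bases in the other libraries. TSC2 overlaps PKD1 on the opposite strand, a gene with mean counts of 519 in siCTRL and 491 in siMatrin3, so its assignment of reads is uncertain where strand was not used.

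Of the 3 GATOR1 genes, only NPRL3 was called. NPRL3 (ENSG00000103148, chr16:84271-138677, minus strand, 14 exons) was at 36.0, 33.9 and 33.99 CPM in siCTRL and at 48.6, 40.6 and 42.3 CPM in siMatrin3. The groups did not overlap, with means of 34.6 ± 1.22 and 43.8 ± 4.21 CPM (SD, n = 3) and a log2 fold change of 0.35 ± 0.09. Its TPM was 13.9 to 15.2 in siCTRL and 14.4 to 20.9 in siMatrin3, so that siMatrin3 replicate 2 fell inside the siCTRL range. NPRL3 overlaps MPG on the opposite strand, whose mean counts were 42.6 in siCTRL and 56.2 in siMatrin3.

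NPRL2 (ENSG00000114388, chr3:50347330-50350826, minus strand, 11 exons), whose product pairs with NPRL3, was at 14.2, 15.3 and 13.2 CPM in siCTRL and at 16.05, 16.5 and 16.1 CPM in siMatrin3. The groups did not overlap, but the log2 fold change of 0.18 ± 0.13 was not called. DEPDC5 (ENSG00000100150, chr22:31753867-31908033, plus strand, 43 exons), the subunit that contacts the RAGs, was at 36.3, 38.8 and 38.7 CPM in siCTRL and at 35.0, 33.1 and 37.4 CPM in siMatrin3. Its groups overlapped and its log2 fold change was -0.11 ± 0.08.

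DEPTOR (ENSG00000155792, chr8:119873717-120050918, plus strand, 9 exons) encodes an inhibitor in both mTOR complexes and was the lowest of the 10. It was at 1.73, 1.65 and 1.59 CPM in siCTRL and at 2.06, 3.48 and 1.87 CPM in siMatrin3, from 8 to 20 reads in a library. The log2 fold change of 0.56 ± 0.37 was not called.

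Which of the 10 were called depended on the fit. DESeq2, run on the same counts, called none of the 8 genes to which it gave an adjusted p (SESN3 and DEPTOR had none), against 10.3% of all genes, although its log2 fold changes lay within 0.0448 of those of edgeR. With RSEM's effective length of each library as an offset in edgeR, none of the 10 was called, against 1.42% of all genes. By limma on log2(TPM + 1) none was called, against 1.04%. On that scale the median gene stood at -0.09, and SESN1, SESN2 and DDIT4 were at 0.41, 0.27 and 0.86. A fit with the replicate number as a block gave the same 4 higher and 2 lower, against 15.8% of all genes.

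Without siCTRL replicate 3 none of the 10 was called. Over all genes, that fit called 350 of 14897 higher and 357 lower, against 814 and 743 of 14334 with every library. The other fits that left out 1 library called 422 to 631 higher and 451 to 625 lower over all genes. Without siCTRL replicate 1, SESN1 and NPRL3 remained called higher and SESN3 lower. Only DDIT4 was called without siCTRL replicate 2, and only SESN1 without siMatrin3 replicate 1. Without siMatrin3 replicate 2, SESN2, DDIT4 and NPRL3 were higher and SESN3 was lower. Without siMatrin3 replicate 3, DDIT4 was higher and TSC1 lower. The directions of the 6 called genes held in every one of these fits. These fits reuse the libraries that gave the calls, so the kept directions add no support.

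**Figure D2:**
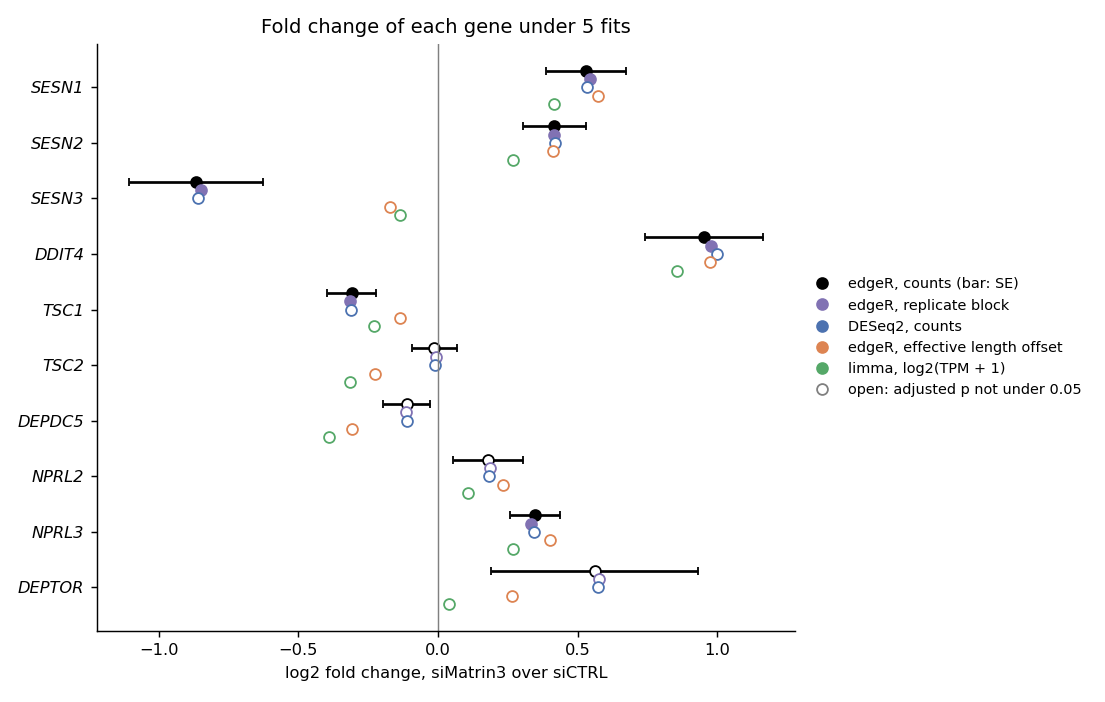
Log2 fold change of siMatrin3 over siCTRL (x axis) for each gene under 5 fits, with filled points where the adjusted p was under 0.05 and a bar for the SE of the edgeR fit on counts. The 2 edgeR fits on counts give the only filled points, and SESN3 moves from -0.87 on counts to -0.17 with the effective length offset.

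The move of SESN3 between the 2 scales came with its effective length, RSEM's mean isoform length weighted by estimated abundance. For SESN3 it stood at 9509, 6499 and 6543 bases in siCTRL and 4665, 5760 and 2871 bases in siMatrin3, 41.0% shorter on average and without overlap. TSC1 was the only other gene of the 10 whose effective lengths did not overlap, at 4372, 4006 and 4302 bases in siCTRL and 3977, 3881 and 3360 bases in siMatrin3. Over all genes tested, 9.44% did not overlap. For both SESN3 and TSC1 an exact permutation test, two-sided, returned p = 0.1 (no lower value is possible with 3 libraries a group), and 0.45 after adjustment over the 9 genes whose length varied. With the offset, the log2 fold change of SESN3 was -0.17 and that of TSC1 -0.14, while SESN1, SESN2, DDIT4 and NPRL3 stood at 0.57, 0.41, 0.98 and 0.40. TSC2 and DEPDC5 moved the other way, to -0.23 and -0.31. The SESN3 lengths were estimated from few reads, with expected counts of 26 to 100 in a library. Whether any isoform changed was not tested.

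**Figure D3:**
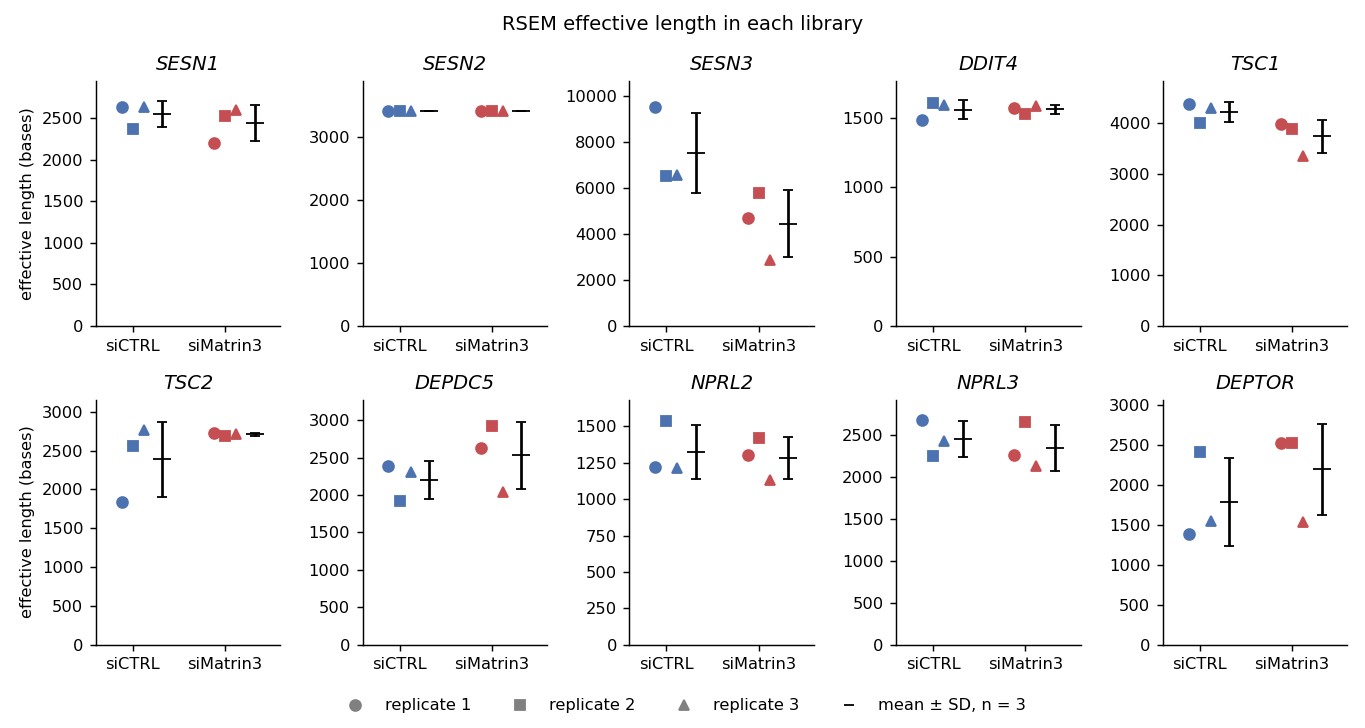
RSEM effective length in bases (y axis from 0) of each gene in the 3 siCTRL (blue) and 3 siMatrin3 (red) libraries, with bars for the mean ± SD. SESN3 runs from 6499 to 9509 bases in siCTRL and from 2871 to 5760 bases in siMatrin3, SESN2 is constant, and siCTRL replicate 1 stands apart for SESN3 and TSC2.

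Per length, the 10 genes spanned a wide range of levels in siCTRL. TSC2 (24.6 ± 5.41 TPM, SD, n = 3) and DDIT4 (23.4 ± 6.35) were highest, at the 73.7 and 72.1 percentiles of all genes tested, followed by DEPDC5 (17.9 ± 2.42), NPRL3 (14.6 ± 0.648), TSC1 (12.2 ± 0.770) and NPRL2 (11.1 ± 1.03). SESN1 (5.96 ± 0.746) and SESN2 (5.53 ± 0.473) came next, at the 34 and 32.3 percentiles. SESN3 (1.56 ± 0.524) and DEPTOR (1.02 ± 0.304) were lowest, at the 9.76 and 4.80 percentiles. Neighbours whose siCTRL ranges overlapped were TSC2 and DDIT4, DDIT4 and DEPDC5, TSC1 and NPRL2, SESN1 and SESN2, and SESN3 and DEPTOR. In siMatrin3, DDIT4 (43.7 ± 13.6) stood above TSC2 (19.3 ± 1.42), NPRL3 above DEPDC5, and NPRL2 above TSC1, while the last 4 kept their places. The siMatrin3 ranges of DDIT4 and TSC2 did not overlap. Those of NPRL3 (14.42 to 20.89 TPM) and DEPDC5 (10.68 to 17.07) did, as did those of NPRL2 (11.03 to 13.21) and TSC1 (9.07 to 12.38). Of the 10, 3 had TPM ranges that did not overlap between the groups, SESN1 and SESN2 higher and TSC2 lower, against 23.9% of all genes tested. For TSC2 the gap was narrow, 20.67 against 20.44 TPM. Leaving out siCTRL replicate 1, in which TSC2 was at its highest TPM, put DDIT4 first and SESN2 above SESN1.

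**Figure D4:**
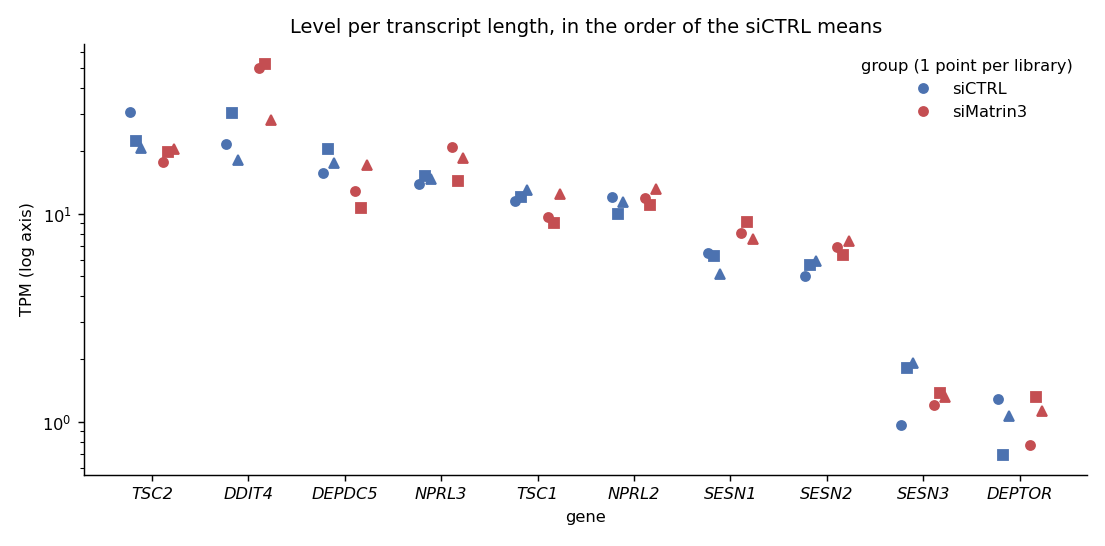
TPM on a log axis for each gene, ordered by the siCTRL mean, with 1 point per library (siCTRL blue, siMatrin3 red, shapes for replicate numbers). DDIT4 lies above TSC2 in siMatrin3, and SESN3 and DEPTOR lie under 2 TPM in every library.

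Among 11455 genes compared over the 6 libraries, those with the CPM pattern most like SESN1 were CRB3 (Pearson r = 0.998), MET (0.996) and PPP6R3 (0.991). Those most like SESN2 were BZW2 (0.995), PSKH1 (0.993) and VPS25 (0.993). An r over 0.9 was reached by 295 genes for SESN1 and by 465 for SESN2. These are descriptions over 6 points that share the group difference.

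The other genes of the mTORC1 pathway were described by lists of known components. These lists, and those of regulators and targets below, were chosen with earlier results of these data known. Counts and p-values within them are therefore a description. Of 72 genes in 9 lists, 70 could be tested, 5 rose and 4 fell by edgeR (12.9%, beside 10.9% of all genes), and their median log2 fold change was 0.03. With the replicate block 7 rose and 7 fell. By DESeq2 4 rose and 3 fell, and with the effective length offset only MLST8 passed (adjusted p = 0.0450, edgeR).

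In the mTORC1 core, 2 of 4 genes rose and none fell. MLST8, the subunit that stabilizes the mTOR kinase domain, was at 24.8, 27.5 and 23.4 CPM in siCTRL and at 44.9, 41.8 and 41.0 CPM in siMatrin3. This was a log2 fold change of 0.74 ± 0.09 (adjusted p = 2.98e-04, edgeR), with no overlap. AKT1S1, the inhibitor PRAS40, was at 60.8 ± 5.93 and 75.8 ± 2.43 CPM (SD, n = 3) and rose by 0.31 ± 0.08 on the log2 scale (adjusted p = 0.0231, edgeR). MTOR itself (log2 fold change -0.05 ± 0.05) and RPTOR (0.15 ± 0.06) did not pass.

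GATOR2, the complex that the sestrins bind, had 2 of 5 genes higher and none lower. WDR59 was at 43.6 ± 2.29 and 57.9 ± 3.76 CPM (SD, n = 3), a log2 fold change of 0.41 ± 0.08 (adjusted p = 0.00545, edgeR). SEH1L, shared with the nuclear pore, was at 66.9 ± 8.98 and 91.0 ± 7.98 CPM, a log2 fold change of 0.45 ± 0.09 (adjusted p = 0.00862, edgeR). The groups did not overlap for either gene. MIOS, WDR24 and SEC13 gave -0.08, 0.10 and 0.22.

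In the unblocked edgeR fit with TMM scaling and by DESeq2 no gene passed among the 3 tested amino acid sensors beside the sestrins, the 13 RAG and Ragulator genes, or the 2 tested partners of TSC and RHEB. Their median log2 fold changes were -0.08, -0.05 and -0.07. At an unadjusted p under 0.05, edgeR held no sensor, 2 of the RAG and Ragulator list (LAMTOR3, -0.34 ± 0.14, and FNIP2, -0.32 ± 0.10) and RHEB (0.18 ± 0.08), all named after their values were seen. FNIP2 passed as lower with the replicate block (adjusted p = 0.0211, edgeR), with upper quartile scaling (0.0489) and with a mean of at least 50 counts (0.035).

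Upstream kinases and growth factor input gave 2 lower genes. PRKAB2, a scaffold subunit of the energy sensor AMPK, was the 1 gene of 9 in its list to pass, at 20.5, 22.1 and 22.4 CPM in siCTRL and 16.5, 17.4 and 12.2 CPM in siMatrin3 (log2 fold change -0.50 ± 0.14, adjusted p = 0.0324, edgeR). DESeq2 gave it an adjusted p of 0.0754. PIK3CA, the catalytic PI3-kinase subunit, was the 1 of 15 in the insulin and mTORC2 list to pass, at 33.9 ± 1.09 and 23.2 ± 2.59 CPM (SD, n = 3; log2 fold change -0.56 ± 0.10, adjusted p = 0.00377, edgeR). With the replicate block RICTOR and IRS2 of that list were also lower, at -0.30 and -0.48 (adjusted p = 0.0334 and 0.0288, edgeR).

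Of 15 mTORC1 substrates and outputs, 1 rose and 2 fell. The translation repressors split: EIF4EBP1 was at 38.7 ± 0.621 and 48.4 ± 3.43 CPM (SD, n = 3) and rose by 0.32 ± 0.08 on the log2 scale (adjusted p = 0.0211, edgeR). EIF4EBP2 was at 167 ± 25.5 and 130.5 ± 3.81 CPM, a log2 fold change of -0.37 ± 0.09 (adjusted p = 0.0179, edgeR). GRB10, an adaptor that dampens insulin signalling, was at 40.4, 43.7 and 45.8 CPM in siCTRL and at 27.2, 28.2 and 27.9 CPM in siMatrin3 (log2 fold change -0.65 ± 0.08, adjusted p = 4.42e-04, edgeR). DESeq2 kept EIF4EBP2 and GRB10 under 0.05 and gave EIF4EBP1 an adjusted p of 0.0754. With the replicate block EIF4B and LARP1 were also higher, at 0.13 and 0.15 (adjusted p = 0.0425 and 0.0367, edgeR).

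**Figure D5:**
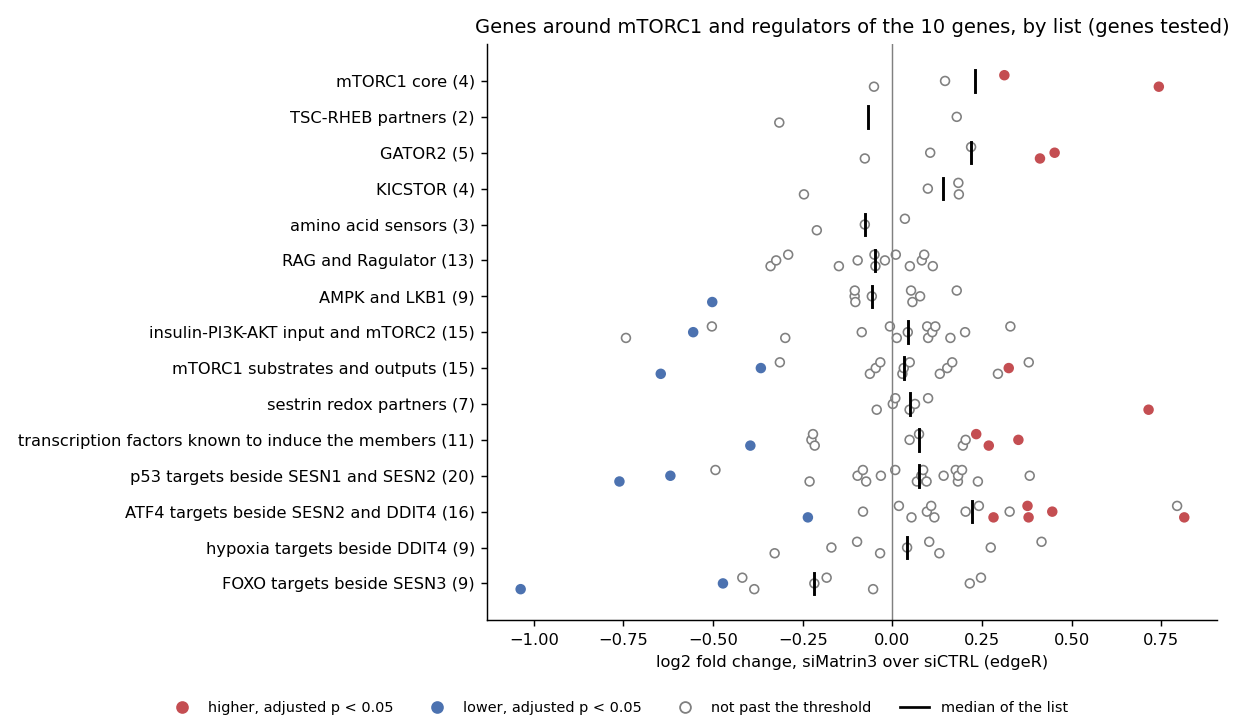
Log2 fold change by edgeR (x axis) of each tested gene in 15 lists, with the number tested in brackets, red and blue points for genes past an adjusted p of 0.05 and a bar at each list's median. The ATF4 target list has 5 red points and 1 blue point, and the hypoxia list has none past the threshold.

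The sestrins also bear on the antioxidant factor NRF2 through KEAP1. Of 7 genes in that list 1 rose, RBX1, the RING subunit of cullin ubiquitin ligases, from 19.9, 18.3 and 18.7 CPM in siCTRL to 29.8, 35.3 and 28.1 CPM in siMatrin3. Its log2 fold change was 0.71 ± 0.11 (adjusted p = 0.00143, edgeR), and it passed in each of the 16 other fits that were run. KEAP1, NFE2L2, SQSTM1, SRXN1, PRDX1 and PRDX3 lay between -0.04 and 0.10.

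Among the transcription factors known to induce members of the set, ATF4 and HIF1A rose and TP73 fell. ATF4 was at 207 ± 23.4 and 249.8 ± 14.7 CPM (SD, n = 3; log2 fold change 0.27 ± 0.08, adjusted p = 0.0383, edgeR). HIF1A was at 218 ± 7.65 and 256 ± 4.69 CPM (0.23 ± 0.05, adjusted p = 0.0119, edgeR). TP73 fell, from 35.6 ± 2.05 to 27.2 ± 0.574 CPM (-0.40 ± 0.09, adjusted p = 0.0117, edgeR), but DESeq2 gave it an adjusted p of 0.0535. FOXO1, FOXO3 and FOXO4 gave -0.23, -0.22 and -0.22 and did not pass, except that FOXO3 was lower with the replicate block (adjusted p = 0.0303, edgeR) and with a mean of at least 50 counts (0.0349).

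Known targets of these factors, other than the 10 genes, moved unevenly. As these lists too were chosen with earlier results known, nothing is read from the shares that passed. Of 16 tested ATF4 targets, 5 rose and 1 fell (37.5%, beside 10.9% of all genes), with a median log2 fold change of 0.22. PSAT1, of serine synthesis, was at 80.7, 89.8 and 77.3 CPM in siCTRL and 145.1, 139.8 and 153 CPM in siMatrin3 (0.81 ± 0.07, adjusted p = 2.60e-05, edgeR) and passed in all 16 other fits. ASNS, the asparagine synthetase, rose by 0.45 ± 0.07 (adjusted p = 0.00127, edgeR), and CARS1, a cysteinyl-tRNA synthetase, by 0.38 ± 0.07 (adjusted p = 0.00595, edgeR). The other two that rose, MTHFD2 and SLC7A11 (0.28 and 0.38), and the 1 that fell, the leucine transporter gene SLC7A5 (-0.24 ± 0.07, adjusted p = 0.0408, edgeR), are named after their values were seen. CHAC1, TRIB3 and DDIT3 gave 0.79, 0.24 and 0.20 and did not pass.

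Of 20 p53 targets none rose and 2 fell in the unblocked edgeR fit, as by DESeq2, with a median of 0.07, and 3 were higher and 3 lower at an unadjusted p under 0.05. With the replicate block 2 were higher, GDF15 and FDXR (0.41 and 0.24, adjusted p = 0.0038 and 0.0414, edgeR), and 3 were lower, the third being AEN. GDF15 also passed without a count filter, with a mean of at least 50 counts and without siCTRL replicate 2. ZMAT3, an RNA-binding p53 target, fell from 57.3 ± 3.73 to 37.2 ± 1.03 CPM (-0.62 ± 0.08, adjusted p = 3.80e-04, edgeR). TP53INP1 fell from 31.8 ± 1.34 to 19.0 ± 4.34 CPM (-0.76 ± 0.14, adjusted p = 0.00417, edgeR). CDKN1A and MDM2, the best known p53 targets, gave -0.07 ± 0.11 and -0.10 ± 0.06, and MDM2 was lower by limma on log2(TPM + 1) (-0.36, adjusted p = 0.043). Of 9 tested hypoxia targets none passed in the unblocked or blocked edgeR fit or by DESeq2 (median 0.04), SLC2A1 was lower by edgeR without a count filter (-0.31, adjusted p = 7.05e-04), 1 was higher by edgeR at an unadjusted p under 0.05 (ADM), and VEGFA, ADM and NDRG1 gave 0.10, 0.42 and -0.17. Of 9 tested FOXO targets none rose and 2 fell (22.2%), with a median of -0.22. The 2 were CCNG2, from 14.03, 15.99 and 15.9 CPM in siCTRL to 7.82, 10.1 and 4.68 CPM in siMatrin3 (-1.04 ± 0.21, adjusted p = 0.00807, edgeR), and CDKN1B, the cyclin-dependent kinase inhibitor p27 (-0.47 ± 0.09, adjusted p = 0.00668, edgeR). None was higher and 5 were lower at an unadjusted p under 0.05, and with the replicate block 4 were lower, KLF6 and PINK1 being the other two.

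Of the genes named from these lists as having passed, MLST8, RBX1 and PSAT1 also did so with the effective length offset, and RBX1 and PSAT1 also by limma on log2(TPM + 1). Leaving out siCTRL replicate 3 ended the calls of AKT1S1, PRKAB2, EIF4EBP1, EIF4EBP2, TP73, HIF1A, ATF4, SLC7A11 and SLC7A5. Of these, siCTRL replicate 1 ended AKT1S1, PRKAB2, EIF4EBP1, ATF4 and SLC7A5, and siCTRL replicate 2 ended PRKAB2, EIF4EBP1, EIF4EBP2, TP73 and SLC7A5. Without siMatrin3 replicate 1, AKT1S1, PRKAB2, EIF4EBP1, EIF4EBP2 and ATF4 did not pass. Without siMatrin3 replicate 2 the calls of ATF4 and SLC7A5 were lost, and without siMatrin3 replicate 3 those of AKT1S1, PRKAB2, EIF4EBP2, HIF1A and SLC7A5.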

How the data were processed

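HCT116 RNA was measured in 3 siCTRL and 3 siMatrin3 libraries. Per the labels, the authors used cutadapt, TopHat and RSEM on hg19. The study's methods describe ribosomal RNA depletion with a directional kit, while the labels name a stranded mRNA kit. The annotation release and strand setting were not given in the labels or methods. The deposited expected counts are RSEM's fractional read estimates per gene, not scaled to each other. TPM was deposited as RSEM scales it, per length and per library. The authors' effective length column was used as deposited, and the FPKM column was not used.

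Gene IDs were matched to GENCODE release 44 on hg38 (58472 of 58884, 99.3%), which gave symbols and positions, since the tables hold no coordinates. Counts were rounded, filtered by filterByExpr (minimum count 10, minimum total 15), scaled by TMM and compared in edgeR 4.0.16 (under R 4.3.3) by its quasi-likelihood test, two-sided, with Benjamini-Hochberg adjustment at 0.05 over all genes tested. SE was taken as log2 fold change over root F. CPM are counts divided by the TMM-scaled library total. Alternatives used DESeq2 1.42.0, limma 3.58.1, other scalings and filters, and each library left out. The script was tested on simulated data. Promoters are from RefSeq.

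The 10 genes and all lists were chosen with earlier results of these data known. Besides the 10 genes and MATR3, the text names up to 3 genes per list past the threshold with the lowest p and the 3 genes most like SESN1 and SESN2 over the 6 libraries. Others are values within a list, chosen after they were seen. Some list genes are not reported here. Spans of MLST8, AKT1S1, WDR59, TP73, HIF1A, TP53INP1, ASNS, CARS1, MTHFD2 and SLC7A11 overlap another annotated gene, so their counts may be shared by estimate. Replicates differed by more than sampling (chi-square over degrees of freedom, 2.62 to 4.37 within groups), and the biological coefficient of variation was 6.44%. The methods call the libraries biological triplicates. Libraries of equal number deviated together (r = 0.107, 0.104 and 0.157 over genes), and r was negative for all other pairs across groups. Deviations from a group mean cancel within the group, so the negative values follow on average from the positive ones and add no evidence. The numbers were taken to pair the samples on the r of equal numbers, not on a stated pairing. The main fit did not use this pairing, and the fit with the replicate block did.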

Additional observations from a re-analysis of the deposited data

How the results depend on the processing

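Under RLE or upper quartile scaling, no count filter, or removal of mitochondrial and small RNA genes, the 4 higher and 2 lower calls among the 10 genes were the same 6 genes. A mean of at least 50 counts gave the same 6 and dropped DEPTOR. The replicate block also gave the same 6 calls. None of the 10 was called higher or lower (0 and 0) by DESeq2, with the effective length offset, by limma on log2(TPM + 1) or log2(TPM + 0.1), or at an adjusted p under 0.01. Leaving out 1 library gave 0 to 3 higher and 0 to 1 lower. Only TSC2 changed sign, to 0.0037 without a count filter, and its log2 fold change ran from -0.072 to 0.058 as each library was left out.

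Over all genes, 814 were higher and 743 lower. The offset gave 99 and 105, DESeq2 572 and 473, limma 31 and 118 with a pseudocount of 1 (median gene -0.09) and 30 and 102 with 0.1 (median -0.10), an adjusted p under 0.01 294 and 295, no filter 1105 and 874, and the replicate block 1203 and 1056. Leaving out 1 library gave 350 to 631 higher and 357 to 625 lower. Of the mTORC1 pathway genes, 5 higher and 4 lower became 1 and 0 with the offset, 0 and 0 on both TPM scales and 3 and 2 at 0.01. Lower genes were 7 with the replicate block and 7 with a mean of at least 50 counts. Leaving out 1 library gave 3 to 5 higher and 2 to 6 lower.

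In the order of siCTRL levels, 6 to 10 genes kept their place as each siCTRL library was left out, and the count per effective length changed none. Effective lengths did not overlap for 2 to 4 genes as each library was left out, with SESN3 and TSC1 always among them. The causes of these changes were not tested. SESN3 and DEPTOR had at most 100 and 20 reads in a library.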
